A study of Mus musculus with 10 samples.

Results

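The regions described here were wide open stretches of chromatin far from genes' starts and without the promoter mark H3K4me3 in F123 mouse embryonic stem cells. A row of the ATAC-seq peak list was taken when it lay on chromosomes 1 to 19, was at least 1000 bp wide, lay over 5 Kb from every transcript start of GENCODE M21 and lay over 2 Kb from every H3K4me3 ChIP-seq peak. Of the 179109 peaks in the list, 172958 were on these chromosomes, 8135 of those were wide enough and 1206 met all conditions. They are called wide distal peaks below. They were selected on measured width and on both distances, so widths, distances to starts and distances to H3K4me3 are given only as a description.

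F123 is an embryonic stem cell line from an F1 cross of Mus musculus castaneus with S129/SvJae. The cells grew in 15% knockout serum replacement with LIF at 1000 U/ml on irradiated CF1 fibroblast feeders and were passaged once without feeders before collection. ATAC-seq used 100000 cells per sample, and H3K4me3 ChIP-seq used 2000000 fixed cells per sample. Each list stands for 2 biological replicates, so no value has a spread between replicates and no test was made, and the PLAC-seq and input samples were not analysed here.

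ATAC-seq marks DNA that the Tn5 transposase can reach, which in most cells is found at promoters and enhancers. H3K4me3 sits around the starts of active genes and of genes held ready for use, so an open region without it is often taken as a candidate enhancer. Mouse DNA also holds LINE-1 elements, mobile sequences whose young subfamilies carry their own promoter as a row of near-identical units (monomers) in front of a long coding frame, and some of them are transcribed in embryonic stem cells. Stem cells in LIF keep their identity through factors such as Oct4 (Pou5f1), Sox2, Nanog, Esrrb and the Klf proteins, and Sox2 and Oct4 often bind DNA side by side at a composite word.

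Most of the wide distal peaks were copies of the same few tandem sequences, and a smaller share was single-copy DNA. In 815 of 1206 peaks (67.6%, 95% Wilson interval 64.9% to 70.2%, counting error only) the DNA belonged to 1 of 3 sequence groups, each linked by alignments of at least 200 bases at 90% identity or more, and each built of a repeated unit. A further 293 peaks (24.3%) were mostly single-copy sequence, meaning that no more than 50% of their 31-base words occurred elsewhere in the assembled chromosomes. The other 98 peaks (8.13%) were repeated sequence outside the 3 groups. The share depended on the width limit, since 49.5% of the peaks of at least 800 bp and 89.7% of those of at least 1500 bp met an array of the tandem units, beside 67.5% at 1000 bp. Neighbouring and related peaks share sequence, so peaks are not independent and the intervals are too narrow to that extent.

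The first group held 620 peaks, and a unit of 212 bases was the commonest, found in 517 of them, followed by 214 bases in 85. The second group held 105 peaks, with a unit of 208 bases in 98. The third held 90, with a unit of 206 bases in 65. Units of these 3 lengths are what is known of the promoters of the young mouse LINE-1 subfamilies TF, A and GF. No repeat annotation was used here, so the groups are named by unit length only. The sequences below are 1 unit from a wide peak of each group, the widest outside annotated genes whose unit had that length, read in the direction of the longest coding frame beside it, with capitals where the base equals that of the next unit. They come from the RefSeq copy of GRCm38.p6 (mm10), at chr8:52305929-52306140 on the plus strand, chr15:91992199-91992406 on the minus strand and chr4:73294765-73294970 on the plus strand, and they are shown because the same letters recur across the genome.
212-base unit: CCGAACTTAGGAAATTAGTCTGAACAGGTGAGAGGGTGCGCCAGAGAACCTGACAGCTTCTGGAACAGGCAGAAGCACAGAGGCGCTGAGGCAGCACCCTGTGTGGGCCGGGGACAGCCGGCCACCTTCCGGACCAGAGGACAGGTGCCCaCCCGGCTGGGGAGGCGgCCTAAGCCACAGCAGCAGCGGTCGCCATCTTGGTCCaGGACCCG
208-base unit: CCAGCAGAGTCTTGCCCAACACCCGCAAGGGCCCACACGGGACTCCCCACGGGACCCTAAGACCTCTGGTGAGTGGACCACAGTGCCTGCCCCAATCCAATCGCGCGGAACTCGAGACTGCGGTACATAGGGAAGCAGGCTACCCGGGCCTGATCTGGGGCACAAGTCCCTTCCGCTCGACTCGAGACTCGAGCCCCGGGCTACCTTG
206-base unit: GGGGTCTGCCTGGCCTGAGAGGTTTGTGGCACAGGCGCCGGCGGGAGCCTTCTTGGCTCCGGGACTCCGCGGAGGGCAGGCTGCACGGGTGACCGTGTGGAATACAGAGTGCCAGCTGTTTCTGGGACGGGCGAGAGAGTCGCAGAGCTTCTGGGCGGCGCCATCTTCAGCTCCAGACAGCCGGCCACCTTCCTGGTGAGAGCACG
The pair of neighbouring units with most equal bases was chosen in each peak. They shared 209 of 212, 208 of 208 and 206 of 206 bases. Between groups the printed units were much less alike. The best global alignment had 62.9% identical columns for the 212- and 206-base units, 54.1% for the 208- and 206-base units and 55.2% for the 212- and 208-base units.

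Within a peak, the median identity between a base and the base 1 unit further on was 80.1% in the 212-base group, 97.7% in the 208-base group and 74.9% in the 206-base group. The 208-base peaks were thus the most regular, with quartiles of 95.8% and 98.2%. A median of 5.67, 6.27 and 5.83 units could be laid in a peak of the 3 groups. The median 31-base word of a tandem peak occurred 1861.5 times in the assembly in the 212-base group, 2640 times in the 208-base group and 751 times in the 206-base group. In 814 of the 815 tandem peaks over 50% of the words were repeated. The share was 18.4% for the 90538 narrower distal peaks, which met both distance rules with a width under 1000 bp, and 3.87% for the 6929 other wide peaks, which failed a distance rule. Among H3K4me3 peaks of chromosomes 1 to 19 it was 284 of 32496 (0.874%). How reads with several possible positions were handled is not given in the sources used here, so which copy of a tandem sequence was open was not tested.

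**Figure D1:**
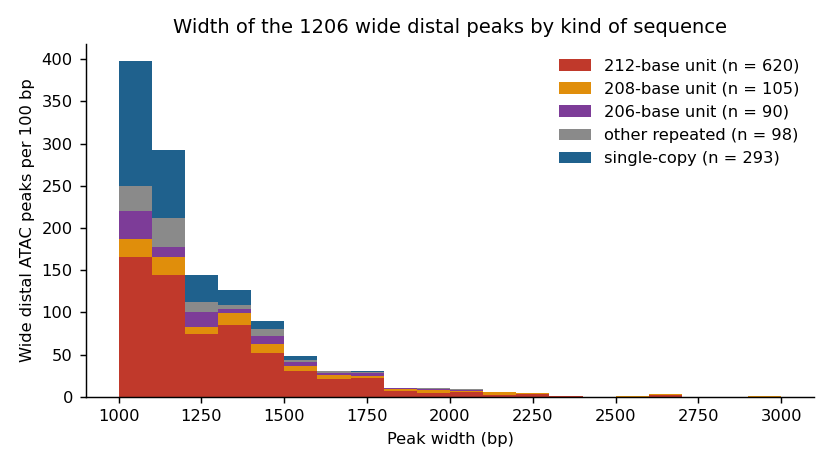
Number of wide distal peaks in 100-bp steps of width (x axis, bp), stacked by kind of sequence. The 293 single-copy peaks end at 1738 bp, and the widest peak, at 2907 bp, is a 208-base array.

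Wide distal peaks had a median width of 1156.5 bp and reached 2907 bp. The rule's edge was dense, with 7 peaks of exactly 1000 bp inside it and 11 distal peaks of 999 bp outside. Their median width was 1200 bp in the 212-base group, 1305 bp in the 208-base group, 1199.5 bp in the 206-base group and 1098 bp for single-copy peaks. All 10 widest peaks, from 2238 to 2907 bp, were tandem. Among them were peaks 2674 bp wide nearest Aga, 2639 bp nearest the adhesion gene Cntn1, 2616 bp nearest the nuclear receptor gene Nr4a2 and 2547 bp nearest Grxcr1. Further ones were nearest Epb41l3, Sval2, Kcnab1, Lrfn5 and Sult2a3. The Aga peak lay 1203555 bp from the Aga start, so a nearest gene can be a distant one.

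The single-copy peaks were shorter but also reached well past the limit. After a 1738 bp peak nearest 2010315B03Rik came the 1723 bp peak nearest Tdgf1 and a 1561 bp peak in an intron with its nearest coding start in Itpr1, which encodes a calcium channel of the endoplasmic reticulum. Base composition differed between the kinds. The median G + C share was 62.6% in tandem peaks and 50.2% in single-copy peaks, beside 51.4% in narrower distal peaks and 41.8% in all 500-base tiles of chromosomes 1 to 19. The ratio of observed to expected CpG was 0.56 in tandem peaks, 0.18 in single-copy peaks, 0.19 in narrower distal peaks and 0.74 in the other wide peaks.

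**Figure D2:**
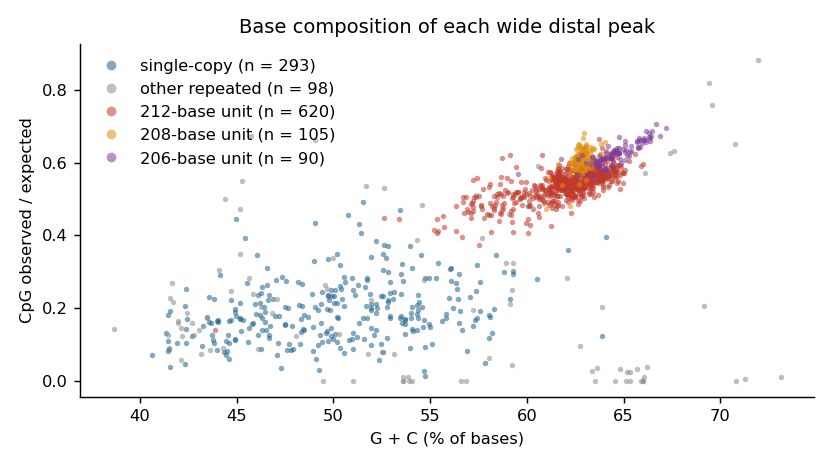
Each point is a wide distal peak, with its G + C share (x axis, percent of bases) and its observed over expected CpG ratio (y axis). The 815 tandem peaks gather around 62.6% G + C and a ratio of 0.56, and the 293 single-copy peaks around 50.2% and 0.18.

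The coding frame that follows a LINE-1 promoter was looked for beside each peak, since the rule used no sequence. A stretch of at least 3500 bases without a stop codon lay within 8000 bases on 1 side of 615 of the 815 tandem peaks (75.5%). It lay beside 3 of the 293 single-copy peaks and 1 of the 98 other repeated peaks. Its length was exactly 3900 bases, or 1300 codons, next to 574 of the 615.

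To see what share of such DNA met an ATAC peak, every array of these units on chromosomes 1 to 19 was located. Words of 31 bases held by at least 1% of a group's peaks, and by more than 1 peak, were marked in the genome. Marks within 250 bp were joined, and 6765 arrays with at least 100 marked words resulted. The groups held 620, 105 and 90 peaks, so the words of the 3 units came from unlike numbers of peaks. The part of this in the shares below was not tested. The words came from the wide distal peaks themselves, so that such peaks sit on arrays by construction and the shares describe arrays like them. The arrays are those of the reference assembly, which is from another mouse strain than the F123 parents. Whether each array is present in F123 was not tested. An ATAC peak met 5095 of the arrays (75.3%, interval 74.3% to 76.3%), and a wide distal peak met 814 (12.0%). An H3K4me3 peak met 37 (0.547%), all of them 212-base arrays. How reads with several positions were treated for the H3K4me3 list is not given in the sources used here either, so H3K4me3 on near-identical arrays, the 815 tandem peaks included, may have gone unseen. The arrays covered 5.48 Mb and took up 5329 ATAC peaks, or 3.08% of those on chromosomes 1 to 19, and 4.40% of the narrower distal peaks.

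The 3 units differed in how often their arrays met a listed ATAC peak. Of 3621 arrays of the 212-base unit 92.7% met an ATAC peak (interval 91.8% to 93.5%), and of 568 arrays of the 206-base unit 92.6% did (90.2% to 94.5%). Of 2576 arrays of the 208-base unit 47.1% did (45.2% to 49.0%). The 208-base share lay under the 212-base share on 19 of 19 chromosomes, where it ranged from 40.8% to 58.5% and the 212-base share from 88.3% to 97.9%. The 208-base share was the lowest of the 3 in each class of array length. Among arrays of over 500 and up to 750 bp, an ATAC peak met 89.98% of 1238 for the 212-base unit. It met 42.1% of 826 for the 208-base unit and 95.5% of 244 for the 206-base unit. From there to 1000 bp the shares were 99.6%, 56.4% and 99.1%. From there to 1500 bp they were 100%, 89.3% and 100%, and above 1500 bp 100%, 98.96% and 100%. With 1 list for both replicates the spread of these shares between replicates is unknown. Sequence likeness moved with the unit too. The 208-base peaks had the highest median word copies, 2640 beside 1861.5 and 751 in the 212- and 206-base peaks, and the highest identity between units, 97.7% beside 80.1% and 74.9%. Among arrays with at least 95% repeated words an ATAC peak met 96.3% for the 212-base unit, 52.4% for the 208-base unit and 98.5% for the 206-base unit. The part of copy number, of identity and of reference arrays absent from F123 in the result was not tested. Neither was the part of how reads with several possible positions were placed.

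**Figure D3:**
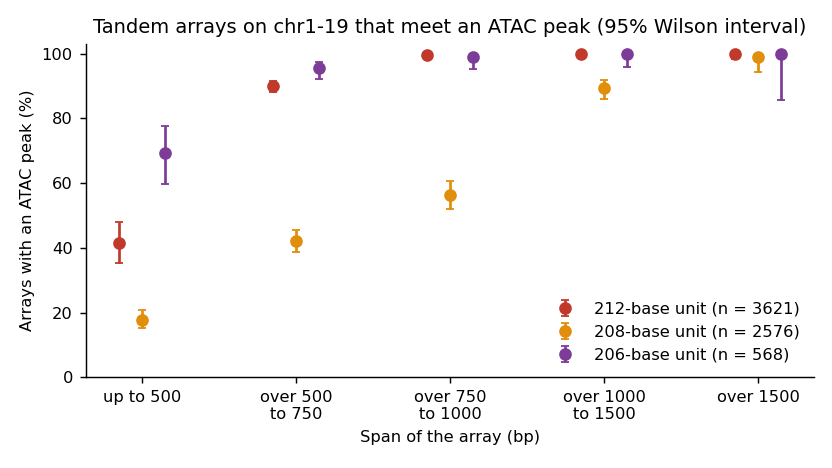
Share of tandem arrays that met an ATAC peak (y axis, percent) by span of the array (x axis, bp) for the 3 units. Points are shares and bars their 95% Wilson intervals, and the 208-base unit lies under both others up to 1500 bp, as with 56.4% against 99.6% and 99.1% for arrays of over 750 and up to 1000 bp.

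Arrays beside a long frame met an ATAC peak more often than those without. For the 212-base unit 98.4% of 1712 arrays with a long frame and 87.6% of 1909 without one met an ATAC peak. For the 208-base unit the shares were 53.3% of 1020 and 43.0% of 1556, and for the 206-base unit 96.3% of 270 and 89.3% of 298. Arrays with a long frame were also longer, with median spans of 928.5 and 684 bp for the 212-base unit, 799 and 583 bp for the 208-base unit and 863.5 and 636.5 bp for the 206-base unit. The part of length in this difference was not tested.

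Peak width went with the span of the array. Over the 4920 arrays that met exactly 1 ATAC peak, Spearman's rank correlation between array span and peak width was 0.85 and Pearson's r was 0.90, as a description over sites that share their sequence and their library. The rank correlation was 0.92 for 3335 arrays of the 212-base unit, 0.92 for 525 of the 206-base unit and 0.65 for 1060 of the 208-base unit. The median peak was 683 bp on a 212-base array with a median span of 809 bp, but 411 bp on a 208-base array with a median span of 794.5 bp.

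**Figure D4:**
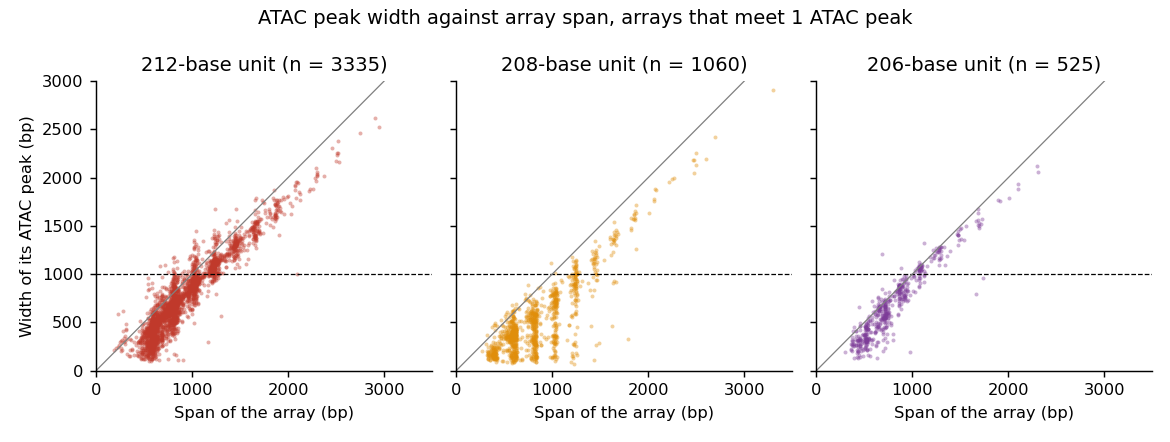
Width of the ATAC peak (y axis, bp) against the span of its array (x axis, bp) for arrays that met 1 ATAC peak, with the 1000 bp limit dashed and equality in grey. In the 208-base panel many narrow peaks lie far under the line of equality, and the rank correlation is 0.65 there against 0.92 in the other panels.

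A word of the factor YY1, AAGATGGC, was seen in the printed 212- and 206-base units as its reverse complement and was then searched for, after the values were known. It lay in the central 500 bases of 83.9% of the tandem peaks, 4.44% of the single-copy peaks and 4.39% of all tiles. The split followed the unit. Over the whole peak, 616 of 620 peaks (99.4%) of the 212-base group and 90 of 90 of the 206-base group held it, and 0 of 105 of the 208-base group did. Among arrays, 3172 of the 212-base unit (87.6%), 552 of the 206-base unit (97.2%) and 0 of 2576 of the 208-base unit held it. Within the 212-base arrays an ATAC peak met 96.0% of those with the word (median span 815 bp) and 69.5% of the 449 without it (median span 585 bp). A match is a description of the letters and says nothing about the factor, and the part of span in this difference was not tested.

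The other transcription factor words were nearly missing from tandem peaks. The SOX2-OCT4 composite TTGTNATGC, on either strand of the central 500 bases, was in 1 of 815. The words of the octamer, ESRRB (TCAAGGTCA), KLF (GGGNGTGGC), STAT (TTCCNGGAA), TEAD (ACATTCCA), the E-box and the factors of the family known as GATA were in 0 of 815. The interval's upper bound was 0.469%, which counts each peak as independent. Since the tandem peaks are copies of few units, that bound is too low. The octamer word was ATGCAAAT, the AP-1 word TGANTCA and the CTCF word AGNGGGCGC, and the last 2 were in 2 of 815 tandem peaks each. For the GATA family the letters searched were AGATAAG.

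The single-copy peaks held these words more often than the tandem peaks. Against narrower distal single-copy peaks the shares went both ways. The SOX2-OCT4 word was in 25 of 293 single-copy peaks (8.53%, interval 5.85% to 12.3%), in 1774 of 73859 narrower distal single-copy peaks (2.40%, 2.29% to 2.51%) and in 1.34% of all tiles. Of the 25 carriers, 20 were over 50% lower-case in the assembly, where lower case marks bases that its makers masked as repeats. Among the 60 single-copy peaks of that kind the word was in 33.3% (22.7% to 45.9%), beside 3.45% of the narrower distal ones, and among the 233 others in 2.15% (0.92% to 4.92%), beside 2.16% of the narrower distal ones. The difference from narrower peaks was thus seen among the mostly lower-case peaks. The E-box word CACGTG was in 10.2% of single-copy peaks and 7.23% of narrower distal single-copy peaks, ESRRB in 2.39% and 1.62%, KLF in 4.44% and 6.57%, STAT in 2.05% and 1.81%, and TEAD in 3.41% and 3.08%. AP-1 was in 15.7% and 21.5%, CTCF in 0.341% and 2.61%, the octamer in 3.75% and 4.38% and GATA in 6.83% and 6.19%. The PRDM14 word (GGTCTCTAA) was in 0 of 1206 wide distal peaks and in 0.305% of the narrower distal peaks.

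**Figure D5:**
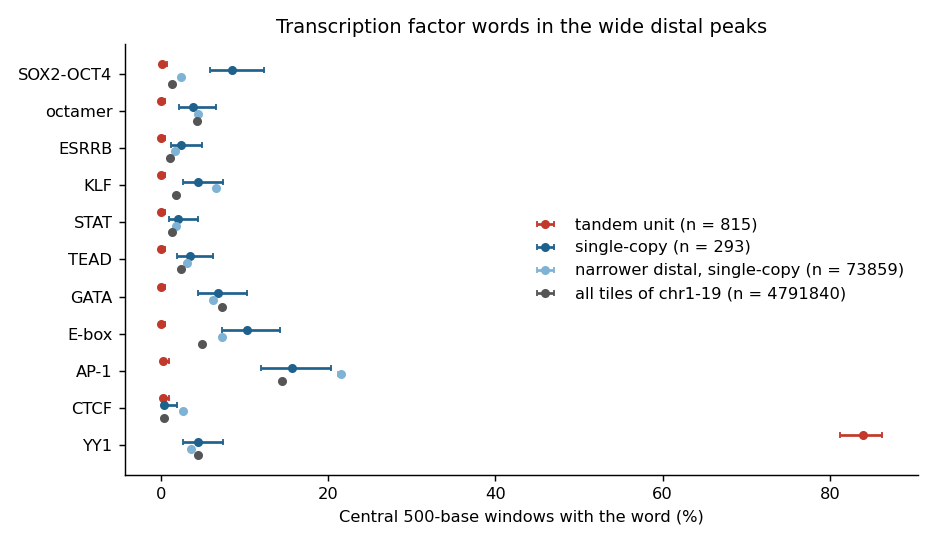
Share of central 500-base windows with each word on either strand (x axis, percent), with 95% Wilson intervals, for tandem peaks, single-copy peaks, narrower distal single-copy peaks and all tiles. Windows of the narrower peaks also hold flanking DNA. Tandem peaks lie near 0 for every word but YY1, at 83.9%, and single-copy peaks reach 8.53% for SOX2-OCT4 beside 2.40% in narrower peaks. Among those of up to 50% lower-case bases, not drawn apart, the SOX2-OCT4 shares are 2.15% and 2.16%.

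A small sequence family carried part of that word outside the tandem groups. The largest group after the 3 tandem ones held 18 peaks on 14 chromosomes with no tandem unit, a median G + C share of 42.3% and a median lower-case share of 84.7%. The SOX2-OCT4 word was in the central 500 bases of 15 of the 18. Of these 18 peaks 13 lay outside genes, at a median of 187280 bp from a coding start, and 5 counted as single-copy.

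Location differed between the kinds. Of all wide distal peaks 65.3% (interval 62.5% to 67.9%) lay outside annotated genes, 32.5% in introns only and 2.24% touched an exon. Outside genes were 67.5% of tandem peaks (64.2% to 70.6%), 60.1% of single-copy peaks (54.4% to 65.5%) and 52.5% of narrower distal peaks, or 48.9% of the single-copy ones among these. An exon was touched by 2 of 815 tandem peaks and 23 of 293 single-copy peaks (7.85%, interval 5.29% to 11.5%). It was 5.00% of narrower distal peaks and 5.77% of the single-copy ones among these. The last share lies within the interval of the wide single-copy peaks. The nearest transcript start was a median of 26226 bp away and at most 719210 bp. At the rule's edge, the wide distal peak closest to a start was 5038 bp away and the wide peak just outside this limit lay at 4862 bp. For H3K4me3 the closest one lay 2098 bp from a peak and the wide peak just outside at 1677 bp. The median distance to a coding start was 120353 bp for tandem peaks and 33269 bp for single-copy peaks, beside 33804 bp for narrower distal peaks. The median distance to the nearest H3K4me3 peak was 141620, 24171 and 33921 bp in the same order.

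Tandem peaks were on all 19 chromosomes and made up 51.1% of the wide distal peaks on chromosome 11, the lowest share, and 78.2% on chromosome 5, the highest. The number of wide distal peaks per Mb ran from 0.358 on chromosome 19 to 0.608 on chromosome 6. Inside coding genes, the long frames beside 171 of the tandem peaks' arrays ran in the gene's direction in 70 (40.9%, interval 33.8% to 48.4%), and those of 614 other arrays in 225 (36.6%, 32.9% to 40.5%). These intervals overlap.

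Wide distal peaks were mostly far from each other. The gap from one to the next nearest had a median of 559644 bp, and 12 of 1206 (0.995%, interval 0.570% to 1.73%) had another within its flanks, taken as 25 Kb in all and split evenly between both sides of the peak. They formed 6 pairs and no larger cluster. These gaps and pairs were not compared with those of another set of peaks, so they only describe 1206 peaks spread over the genome. The pair with the longest span covered 14585 bp in an intron nearest Sorcs1, at chr19:50426291-50440875. The next lay nearest Gm21119 (13794 bp), Upf2 (8612 bp), the lipid phosphatase gene Plpp3 (8428 bp) and the pair of genes 2410141K09Rik and Gm10772 (7540 bp). No pair joined 2 tandem peaks, and 2 pairs held 1 each.

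The number of other open sites nearby differed between the kinds. A tandem peak had a median of 0 other ATAC peaks in the same flanks and a single-copy peak 2, as did a narrower distal peak. None at all was found near 53.6% of tandem peaks (interval 50.2% to 57.02%), 13.3% of single-copy peaks (9.89% to 17.7%) and 19.1% of narrower distal peaks, or 16.9% of the single-copy ones among these, which lies within the interval of the wide single-copy peaks. At least 5 were found near 0.859% of tandem peaks, 18.8% of single-copy peaks, 17.6% of narrower distal peaks and 18.8% of the single-copy ones among these.

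The nearest coding genes were many, with few genes near several peaks. Of 20807 coding genes on chromosomes 1 to 19, 987 (4.74%) were the nearest to at least 1 wide distal peak, 284 (1.36%) to at least 1 single-copy peak and 13431 (64.6%) to at least 1 narrower distal peak. Among the 987 genes 827 had 1 peak, 117 had 2 and 43 had 3 or more. Lrfn5 and Pcdh7, both for neuronal adhesion proteins, had 6 each, of which 4 and 6 were tandem. Cntnap5a had 5, of which 4 were tandem. Olfm4, Gpc5 and Flrt2 had 4 each, all tandem, Galc 4 with 2 tandem and G6pd2 4 with 3 tandem. Gm15319 and Gm21119 had 4 each, none of them tandem. No gene had more than 2 single-copy peaks.

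Pluripotency genes were among the nearest genes, mostly through single-copy peaks. All 27 core and naive pluripotency genes of the list on these chromosomes had an H3K4me3 peak within 1 Kb of a start, and so had 14559 of all 20807 coding genes (70.0%). Markers of other cells were also marked, at 16 of 20 fibroblast genes and 13 of 13 neural genes, and the part of remaining feeder cells in the lists was not tested. Of the 3 core genes 1 was nearest to a wide distal peak, and of the 24 naive genes 4, beside 4.74% of all coding genes. With single-copy peaks only these were 1 and 3 genes, beside 1.36%. The count of these genes depended on the width limit, with 12 of 27 at 800 bp and 0 at 1500 bp, and was 3 at over 10 Kb from starts and 3 without mostly lower-case peaks. In the same settings and order 2041, 147, 792 and 261 of all 20807 coding genes were nearest to a peak, so the background moved with the limit too. The choice of lists followed earlier results, so these counts stand as a description.

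The peak nearest Sox2, the core factor, was 1035 bp wide at chr3:34727886-34728920, 77481 bp from the Sox2 start and 11224 bp from the nearest start of any gene. It was 42.3% lower-case and 12.9% of its words were repeated. The fold enrichment of the H3K4me3 peak at the Sox2 start was 42.9, as the authors' pipeline gave it. The peak nearest Klf2, a transcription factor of the naive state, was 1357 bp wide and lay 14305 bp from the start, and none of its words were repeated. The one nearest Mycn, which encodes a growth-promoting transcription factor of the Myc family, was 1057 bp wide at chr12:13066893-13067949 and 124979 bp away. The one nearest Il6st, which encodes gp130, the shared receptor chain through which LIF signals, was 1051 bp wide at chr13:112409603-112410653, 53417 bp from the start, with 59.0% lower-case bases but 5.83% repeated words. Tet2, an enzyme of DNA demethylation, was nearest to a 1088 bp peak of the 212-base group, 96595 bp away, with 96.2% repeated words.

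The middle 250 bases of 3 of these single-copy peaks are printed because they are pluripotency loci of the set. None of the 3 held the SOX2-OCT4 word. The last sequence is from the peak nearest Pros1, chosen after its values were seen as the non-exonic single-copy peak with that word that had the lowest lower-case share (5.45%). Capitals mark any of the 12 words searched, and all are on the plus strand of GRCm38.p6, at chr3:34728278-34728527, chr12:13067296-13067545, chr13:112410003-112410252 and chr16:63063036-63063285 in this order.
Sox2 peak: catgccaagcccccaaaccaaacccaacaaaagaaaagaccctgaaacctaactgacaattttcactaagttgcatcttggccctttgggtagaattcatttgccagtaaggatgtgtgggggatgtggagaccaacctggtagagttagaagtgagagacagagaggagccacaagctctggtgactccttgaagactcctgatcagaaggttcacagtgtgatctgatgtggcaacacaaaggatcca
Mycn peak: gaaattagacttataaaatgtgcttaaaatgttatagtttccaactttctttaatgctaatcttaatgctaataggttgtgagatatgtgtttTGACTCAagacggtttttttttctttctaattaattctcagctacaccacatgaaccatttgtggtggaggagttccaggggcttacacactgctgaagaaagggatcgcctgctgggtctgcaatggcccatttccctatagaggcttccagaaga
Il6st peak: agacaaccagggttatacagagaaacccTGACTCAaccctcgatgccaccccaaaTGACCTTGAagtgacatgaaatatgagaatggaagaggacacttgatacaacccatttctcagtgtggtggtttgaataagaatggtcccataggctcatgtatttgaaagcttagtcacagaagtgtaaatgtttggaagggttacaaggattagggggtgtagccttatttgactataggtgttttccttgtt
Pros1 peak: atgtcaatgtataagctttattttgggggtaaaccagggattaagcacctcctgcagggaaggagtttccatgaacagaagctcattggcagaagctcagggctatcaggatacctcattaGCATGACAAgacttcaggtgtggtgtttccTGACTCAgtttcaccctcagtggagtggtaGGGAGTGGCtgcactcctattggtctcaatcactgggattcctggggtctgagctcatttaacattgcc
The Mycn window held an AP-1 word and the Il6st window an AP-1 and an ESRRB word. The Pros1 window held the SOX2-OCT4 word with a KLF and an AP-1 word beside it. The Sox2 window held none, while the whole Sox2 peak held a KLF and an AP-1 word.

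Several best known loci missed the width limit. The widest distal peak nearest Nanog was 991 bp, at chr6:122715475-122716465, 7907 bp from the start, with no repeated words. Those nearest Klf4, Zfp42, Klf5 and Lifr were 940, 847, 851 and 823 bp wide, and that of Klf4 lay 519161 bp from its start. For Esrrb the widest was 793 bp among 30 distal peaks, for Tfcp2l1 664 bp and for Pou5f1 601 bp. Of the 27 genes 5 had a wide distal peak, 7 had a widest distal peak of 800 to 999 bp, 12 had only narrower ones and 3 had none. Among the 7, the peaks nearest Nr5a2 (883 bp) and Dppa4 (854 bp) had 97.7% and 95.2% repeated words. Of all 20807 coding genes 4.74% were nearest to a wide distal peak and 64.6% to a narrower one. Their widest distal peaks were not sorted by width, so the split has no comparison. A list of 7 genes with known distal enhancers or promoter contacts (Med13l, Macf1, Esrrb, Etl4, Ifitm3, Mtnr1a and Phc1) had no peak of this width. With so few genes, 0 cannot be told apart from the 4.74% of all coding genes. The closest were Etl4 at 924 bp and Phc1 at 910 bp. The list is partial, since the paper also shows verified contacts of the Sox2, Nanog and Pou5f1 promoters.

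Of 19 genes of FGF and Nodal signalling 3 were nearest to a wide distal peak, each to a single-copy one, beside 4.74% and 1.36% of all coding genes. Fgf4, the growth factor that drives ERK signalling, had a single-copy peak of exactly 1000 bp at chr7:144872561-144873560, 11175 bp from the start and 7321 bp from an H3K4me3 peak. Tdgf1, which encodes the Nodal co-receptor Cripto, had one of 1723 bp at chr9:110937838-110939560, just 5311 bp from the start and 2321 bp from H3K4me3. Dusp6, a phosphatase that dampens ERK, had 2 peaks, a single-copy one of 1025 bp and a repeated one of 1296 bp. None of the 9 formative and primed genes and none of the 10 housekeeping genes had any.

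Lists of other lineages had wide distal peaks too, beside 4.74% of all coding genes, or 1.36% with single-copy peaks only. Fibroblast genes had them at 5 of 20, of which 4 were tandem, and core and naive pluripotency genes at 5 of 27. Tbx18 had 2, and Twist1 and Vim 1 each, all of the 212-base group, and Col1a2, a collagen gene, had a single-copy peak of 1412 bp at chr6:4456046-4457457, 47357 bp from its start. Primitive endoderm genes had them at 3 of 12. The endocytic adaptor gene Dab2 had a single-copy and a repeated peak, Foxa2 a single-copy peak of 1093 bp and Sox17 a 212-base one of 1593 bp. Among trophoblast genes Tfap2c (1273 bp, single-copy) was 1 of 11, among germline and two-cell genes Prdm1 (1044 bp, single-copy) was 1 of 12 and among mesoderm genes Hand2, with 2 peaks of the 212-base group, was 1 of 11.

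The nearest coding gene often carried H3K4me3 at a start. Within 1 Kb of a start of that gene an H3K4me3 peak was listed for 886 of 1206 wide distal peaks (73.5%, interval 70.9% to 75.9%), beside 83.6% of narrower distal peaks and 86.6% of the single-copy ones among them. It was 89.1% for single-copy peaks (85.0% to 92.2%), 70.2% for tandem peaks (66.95% to 73.2%) and 54.1% for the other repeated peaks (44.2% to 63.6%). The share for tandem peaks lay close to the 70.0% of all coding genes. Where the nearest gene was marked, the median fold enrichment of its strongest peak was 31.02 for single-copy peaks and 26.5 for tandem peaks, beside 31.2 for narrower distal peaks.

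Few of these regions met a known element of the RefSeq annotation, and so did few narrower distal peaks. The annotation held 1411 functional elements with a position on chromosomes 1 to 19. Any of them was met by 2 of 1206 wide distal peaks (0.166%, interval 0.0455% to 0.603%) and by 266 narrower distal peaks (0.294%). The share of narrower peaks lies within that interval. Both wide distal peaks were single-copy (0.683% of 293, interval 0.187% to 2.45%) and met an enhancer. They were the peak nearest Gpr4 at chr7:19217960-19218973, within an enhancer recorded for limb and facial mesenchyme, and the peak nearest Irf2bp2 at chr8:126666352-126667360, within an enhancer recorded for forebrain.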

How the data were processed

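For ATAC-seq, the authors aligned reads on mm10 (Bowtie 1.1.2), dropped duplicate and mitochondrial ones (SAMtools), moved read ends by 4 bp for the Tn5 cut, called peaks (MACS2 2.1.1.20160309) and retained those of the pooled data that each replicate also had (bedtools 2.27.1). The calling limit was set on the p-value, with no q value limit given. The deposited ATAC-seq list holds positions only. The H3K4me3 list was made by the ENCODE histone pipeline run with default settings, and the deposited columns hold positions, a fold enrichment (a ratio over the caller's background), −log10 p and q values and a display score, which was not used. Its aligner and threshold are not given in the sources used here. Read counts are in neither list, so depth is unknown and precision could not be judged from it.

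Distances ran from a peak's nearest edge to GENCODE M21 transcript starts. Sequence came from RefSeq GRCm38.p6, soft-masked. Every 10th 31-base word of a peak was counted in chromosomes 1 to 19, X, Y and M, and a word found at least 2 times was repeated. Peaks were aligned to each other with blastn 2.17.0, and links of at least 200 bases and 90% identity made the sequence groups. The tandem unit was the shift of 150 to 399 bases with most equal bases. Scripts ran in Python 3.11.15 with numpy 2.4.6, pandas 2.3.3, numba 0.67.0, networkx 3.6.1 and matplotlib 3.10.9, and were tested on simulated data and against bedtools 2.31.1.

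No test was made, because each list stands for both replicates. Genes were named by rule: up to 4 per list with a wide distal peak, the 10 nearest to most peaks, the 10 widest peaks and the 5 clusters with most peaks. The members and lists were chosen with earlier results of these data known, and the YY1 word, the arrays and the repeat classes were chosen after seeing the data. The alternatives changed the limits of width and distance, the H3K4me3 threshold, the joining of peaks, the repeats kept, the linkage and the motif window. Some genes and sequences that the rules would name are not reported here.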

Additional observations from a re-analysis of the deposited data

Results flagged for a closer look

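The same rule found wide distal peaks outside the chromosomes described above. Chromosome X held 119 of them and chromosome Y held 8, in data that the comparisons did not use. On chromosome X 113 of the 119 (94.96%) met a tandem array. This chromosome had 4.85 arrays per Mb, beside 2.75 on chromosomes 1 to 19, and 0.696 wide distal peaks per Mb, beside 0.490. An ATAC peak met 74.5% of its 829 arrays.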

How the results depend on the processing

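Of 75 alternative values of the 7 main results, 50 stayed within the stated limits, 1.5 times for counts and the main interval for shares. With a width of at least 800 bp there were 2918 wide distal peaks and 2041 nearest coding genes, 77.2% of peaks had a marked nearest gene, 2.78% had another within their flanks, 58.3% were mostly repeated words and 5.42% held the SOX2-OCT4 word. At 1500 bp the values were 156 peaks, 147 genes, 68.6%, 0%, 96.2% and 0%, and 69.9% lay outside genes. Without peaks of over 50% lower-case bases there were 270 peaks and 261 genes, 55.9% lay outside genes, 83.7% had a marked nearest gene, 13.3% were mostly repeated and 1.85% held the SOX2-OCT4 word. Mostly repeated words were found in 73.1% at over 2 Kb and 78.9% at over 10 Kb from starts. Within 100 Kb 623 nearest genes were left. Another wide distal peak within 5 Kb and within 25 Kb on either side was found for 0.166% and 1.74%, and a central 300 bp gave 1.82% for the SOX2-OCT4 word. Each setting by its construction changes the peaks kept or the distance or window counted, and no other cause was tested. Core and naive pluripotency genes nearest to a wide distal peak, 5 in the main setting, numbered 12 at 800 bp, 0 at 1500 bp, 3 at over 10 Kb from starts and 3 without mostly lower-case peaks. All nearest coding genes numbered 2041, 147, 792 and 261 in the same order.

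Among alternatives chosen after seeing the data, other alignment limits left 806 to 880 tandem peaks. A share of repeated words up to 25% or 75% gave 19.7% or 27.3% single-copy peaks. The SOX2-OCT4 word fell in 2.15% of the single-copy peaks with up to 50% lower-case bases, 5.12% at a central 300 bp and 10.2% at a central 1000 bp. No paired analysis was possible because each list stands for both replicates, and leaving out a replicate could not be run for the same reason.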
